A study of Homo sapiens with 8 samples.

Results

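MS177 is a degrader built from C24, an inhibitor of EZH2, and it was made to bring EZH2 to CRBN, the substrate receptor of a ubiquitin ligase that marks proteins for the proteasome. MS177N1 is a related control compound that does not degrade EZH2. MM1.S is a human multiple myeloma line of plasma cell origin. MS177 and MS177N1 were each given to MM1.S cells at 0.5 uM for 24 h, and libraries made from total RNA were sequenced in bulk, 2 per compound. The 4 libraries are set against each other below, out of 8 in the series. The other 4 received C24 at 0.5 uM or DMSO, the solvent, also for 24 h. All 8 libraries came from the same line, and the labels name no genetic change in any group, so as far as they tell the groups differ in the agent alone. The members of this comparison are all genes of the deposited table, 16295 in number, of which 14164 had enough reads to be tested.

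EZH2 is the catalytic subunit of Polycomb repressive complex 2 (PRC2), which methylates a lysine of histone H3 and keeps developmental genes silent together with Polycomb repressive complex 1 (PRC1). In myeloma the complex supports growth, and MYC is a main driver of the same cells. A degrader removes the protein and leaves its mRNA to be read as usual, so the EZH2 transcript does not check the labels here. CRBN also binds immunomodulatory drugs, which redirect it to transcription factors such as IKZF1 and IKZF3 on which plasma cells depend.

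Reads in listed genes came to 20000665 and 22817519 in the MS177 libraries, and to 21426342 and 24813228 in the MS177N1 libraries. The 8 libraries ranged between 20000665 and 26619099 reads. Every level below is a normalized read count, that is reads divided by the size factor of the library, and it serves to compare a gene between libraries, not one gene with another. Replicates differed by a median of 0.11 on the log2 scale with MS177 and of 0.06 with MS177N1 among genes with at least 100 normalized reads. On the first principal component, which held 63.6% of the variance, the MS177 libraries lay at -81.19 and -82.18, while the other 6 libraries lay between 25.21 and 28.09.

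The response to MS177 was broad. Of 14164 genes, 8131 (57.4%) passed an adjusted p of 0.05 in limma between MS177 and MS177N1, and such genes are called higher or lower from here on. MS177 raised 4077 of them (28.8%) and lowered 4054 (28.6%), and 1366 of the higher and 628 of the lower calls reached 2-fold. The median log2 fold change over all genes was -0.00, and the median standard error (SE) was 0.107 on the same scale. The size factors tend to hold this median near 0, so the balance of higher and lower calls depends on the scaling. With scaling by total reads, 4675 genes were called higher and 3426 lower, and the median was 0.07. The MS177 and MS177N1 libraries did not overlap in 11032 genes (77.9%). Nothing in the labels says whether the 2 libraries of a compound came from separate cultures, so each p measures the spread between these libraries, which may be technical. In bulk RNA, fewer cells of a kind and less RNA per cell cannot be told apart.

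**Figure D1:**
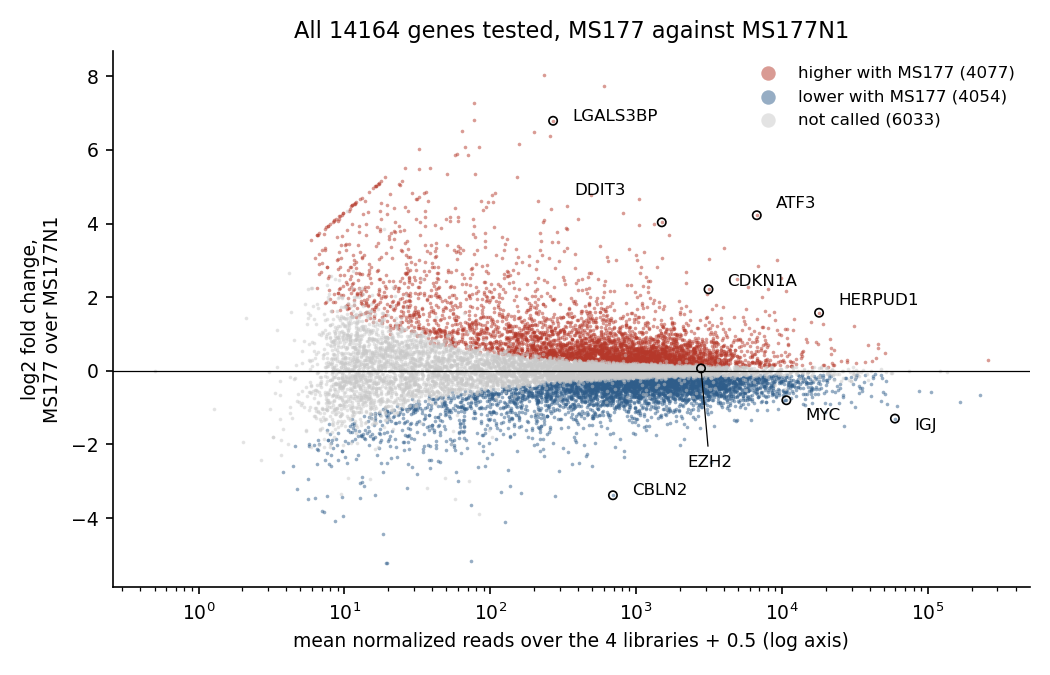
Log2 fold change of MS177 over MS177N1 against the mean normalized reads of the 4 libraries plus 0.5 (log axis), 1 point per gene (n = 2 libraries per compound). Red points were called higher with MS177 (4077), blue points lower (4054) and grey points neither. ATF3, DDIT3 and HERPUD1 lie above 0, IGJ and CBLN2 below, and EZH2 lies near 0.

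The comparisons that share these libraries are given side by side and are not independent of one another. MS177 against DMSO gave 8207 calls (57.9%) and MS177 against C24 gave 8233 (58.1%). MS177N1 against DMSO gave 5 calls (0.0353%), with 718 of 14164 genes at an unadjusted p under 0.05. C24 against MS177N1 gave 2 calls (0.0141%), with 634 genes at an unadjusted p under 0.05. The 3 compounds thus make 3 pairs at the same dose and time, and p was adjusted within each pair over the 14164 genes.

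PRC2 transcripts moved in both directions, and EZH2 itself was not called. EZH2 had 2819 and 2881 normalized reads in the MS177 libraries, against 2720.3 and 2723 in the MS177N1 libraries. The log2 fold change was 0.07 (95% interval -0.04 to 0.17, limma adjusted p = 0.283), so a change of more than about 0.17 on the log2 scale lies outside the interval. Both MS177 libraries lay slightly above both MS177N1 libraries. With scaling by total reads EZH2 was called higher at 0.14, and with trends on transcript length and GC content removed its value was -0.04.

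EZH1, the less active catalytic paralog, had 973 and 1088 normalized reads in the MS177 libraries, against 583 and 624 in the MS177N1 libraries. EED, the subunit that reads the mark, had 523 and 534 normalized reads in the MS177 libraries, against 739.6 and 785 in the MS177N1 libraries. SUZ12, the scaffold, had 3192 and 3252 normalized reads in the MS177 libraries, against 4066 and 4308 in the MS177N1 libraries. EZH1 therefore rose (0.77, SE 0.09, limma adjusted p = 1.71e-06) while EED (-0.53) and SUZ12 (-0.38) fell, and in each of these genes the groups did not overlap. Of 13 PRC2 genes tested, 3 were called higher and 7 lower, with a median log2 fold change of -0.32. C17orf96 (EPOP), an accessory subunit linked to elongin, fell furthest, with 325 and 316 with MS177, against 966 and 932 with MS177N1 (-1.56). PHF1, a Polycomb-like accessory subunit, rose instead, with 1009 and 909 with MS177, against 471 and 484 with MS177N1 (1.00), as did LCOR (0.73). RBBP4, RBBP7, MTF2 and JARID2 were the other lower calls, at -0.49, -0.32, -0.33 and -0.32, MTF2 with a call lost in 2 and JARID2 in 1 of 17 other settings (other scalings, filters, models and left-out libraries).

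PRC1 genes more often rose: of 20 tested, 10 were called higher and 4 lower, against 28.8% and 28.6% of all genes, with a median of 0.23. PCGF2, a core PRC1 subunit, had 212 and 203 normalized reads in the MS177 libraries, against 47.2 and 44.6 in the MS177N1 libraries. RYBP, a subunit of variant PRC1, had 1883 and 1961 with MS177, against 833 and 841 with MS177N1. Both lay well above MS177N1 in both MS177 libraries, at log2 fold changes of 2.15 and 1.20 (limma adjusted p = 9.16e-06 and 1.18e-09). KDM2B, which brings variant PRC1 to CpG islands, fell (-0.47), as did CBX6 (-0.38), PCGF6 (-0.38) and PCGF1 (-0.56, a call lost in 1 of 17 other settings).

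Developmental genes of the kind that Polycomb silences were called about as often as other genes. Of 40 listed, 16 had enough reads to be tested, 5 were called higher and 3 lower, against 28.8% and 28.6% of all genes, and the median was -0.00, or 0.07 with scaling by total reads. WNT5A, a signalling ligand, had 320.4 and 307 normalized reads in the MS177 libraries, against 86.0 and 107 in the MS177N1 libraries (1.70), and HOXB7 had 234 and 284 with MS177, against 112 and 107 with MS177N1 (1.22). MEIS1, a homeobox factor, also rose (0.86), while GATA4 fell to 81.4 and 69.2 with MS177, against 137 and 147 with MS177N1 (-0.91). SOX2 was also called higher (0.27, lost in 2 of 17 other settings), and MEIS2 (-0.77, lost in 1) and LHX2 (-0.74) were the other lower ones. The higher count was 3 without the first MS177 library. Here and below, members named because 5 or fewer of a list moved one way were chosen after their values were seen.

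CRBN, the receptor that the degrader uses, had 624 and 643 normalized reads in the MS177 libraries, against 408 and 439 in the MS177N1 libraries (0.58, SE 0.10, limma adjusted p = 0.000108). IKZF1 had 4603 and 4761 normalized reads in the MS177 libraries, against 2945 and 3037 in the MS177N1 libraries. IKZF3 had 4606 and 5077 normalized reads in the MS177 libraries, against 3914 and 4019 in the MS177N1 libraries. Both Ikaros factors therefore rose at the RNA level (0.65 and 0.29) and the groups did not overlap. Among 17 genes whose proteins CRBN degrades with immunomodulatory drugs, 9 were called higher and 3 lower, against 28.8% and 28.6% of all genes. Of these calls, 7 higher and 2 lower ones held in all 17 other settings. CSNK1A1, a casein kinase, had 8497 and 8549 with MS177, against 4901 and 4844 with MS177N1 (0.81), and IKZF2 had 83.6 and 110.4 with MS177, against 25.2 and 27.3 with MS177N1 (1.83). ARID2 (-0.50), WIZ (-0.33) and GSPT1 (-0.18, a call lost in 3 of 17 other settings) were the lower calls.

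The CRBN ligase and its activating enzymes, CRBN included, gave more lower calls than higher. Of 21 genes, 3 were called higher and 11 lower, against 28.8% and 28.6% of all genes. The lower count was 7 without the first and 7 without the second MS177N1 library, which is near the share of all genes. NAE1, a part of the enzyme that activates NEDD8, had 870.1 and 1048 normalized reads in the MS177 libraries, against 1887 and 1875 in the MS177N1 libraries (-0.98). RBX1, the RING subunit, had 1239.8 and 995 with MS177, against 1855 and 1829.8 with MS177N1 (-0.73). CUL4B (0.31) and UBA3 (0.37) were the higher calls beside CRBN.

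**Figure D2:**
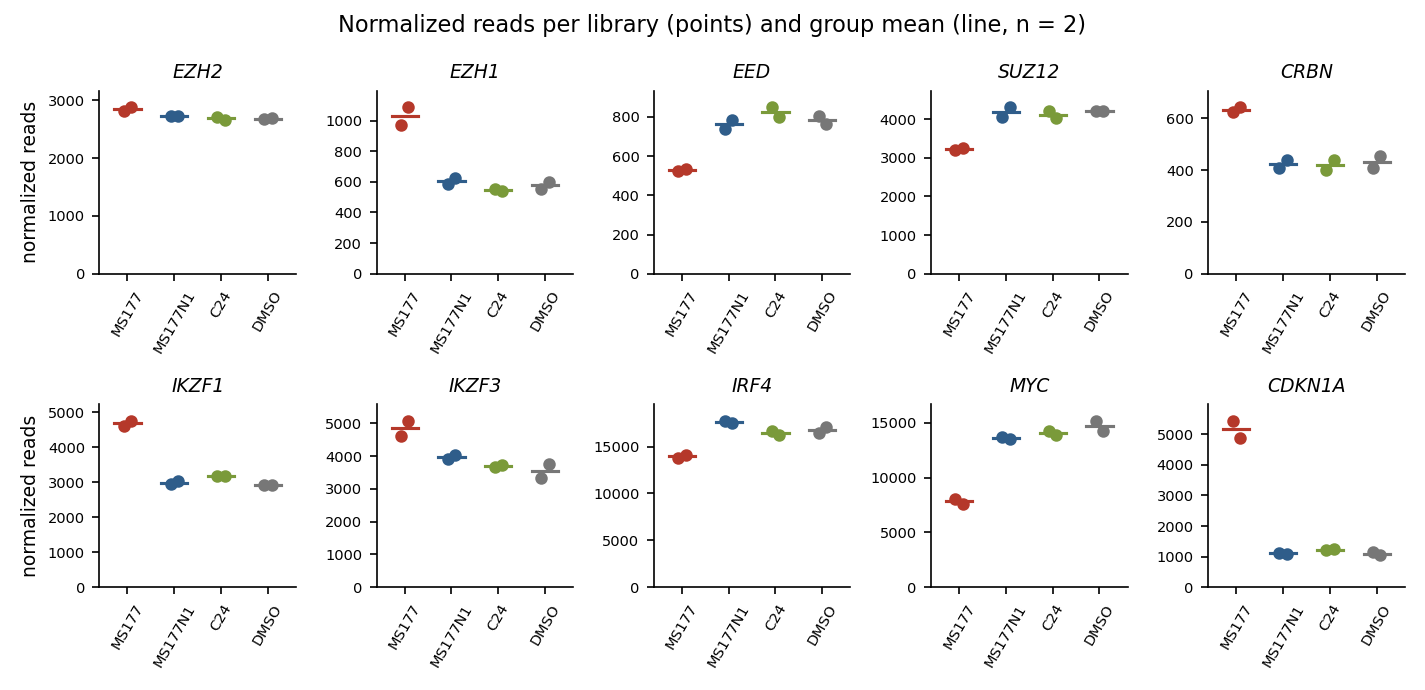
Normalized reads of 10 genes in the 2 libraries of each group (points) with the group mean (line), every axis starting at 0. EZH2 is nearly level across the 4 groups, CDKN1A, IKZF1, EZH1 and CRBN are highest with MS177, and MYC, EED, SUZ12 and IRF4 are lowest with MS177, while MS177N1, C24 and DMSO lie close together.

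The genes that ATF4 and CHOP switch on rose together. ATF4 is the transcription factor made when the kinases of the integrated stress response slow translation, and CHOP, encoded by DDIT3, acts after it. Both bind a composite site, the C/EBP-ATF response element (CARE), and both turn on amino acid synthesis and import, tRNA charging and, when stress lasts, cell death genes. The letters TGATGNAA were searched on both strands of RefSeq promoter windows (GRCh38.p14, 250 bases before to 50 bases after the start of a gene), and 1003 of 27305 windows (3.67%) held them, as did 155 of 9763 windows (1.59%) of tested genes. The windows below are those of genes called higher with MS177, shown because they carry the element, which is in capitals. Each runs 5′ to 3′ on the strand of the gene, and in CHAC1, GOT1, AARS1 and IARS1 the element is read from the other strand.
ATF3: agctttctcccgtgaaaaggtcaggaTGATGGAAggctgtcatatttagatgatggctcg
CHAC1: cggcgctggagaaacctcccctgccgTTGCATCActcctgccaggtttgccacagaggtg
ASNS: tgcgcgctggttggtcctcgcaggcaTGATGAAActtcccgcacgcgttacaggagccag
BCAT1: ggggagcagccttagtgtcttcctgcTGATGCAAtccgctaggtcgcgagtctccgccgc
MTHFD1L: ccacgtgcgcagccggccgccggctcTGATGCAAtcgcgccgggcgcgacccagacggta
GOT1: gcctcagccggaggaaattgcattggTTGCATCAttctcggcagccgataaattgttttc
AARS1: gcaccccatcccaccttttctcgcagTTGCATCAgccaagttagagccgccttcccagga
IARS1: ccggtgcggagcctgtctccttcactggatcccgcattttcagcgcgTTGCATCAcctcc
These lie at chr1:212565190-212565249 (+ strand) (ATF3), chr15:40953236-40953295 (+ strand) (CHAC1), chr7:97872443-97872502 (- strand) (ASNS), chr12:24949116-24949175 (- strand) (BCAT1), chr6:150866331-150866390 (+ strand) (MTHFD1L), chr10:99430789-99430848 (- strand) (GOT1), chr16:70289660-70289719 (- strand) (AARS1, AARS in the table) and chr9:92293698-92293757 (- strand) (IARS1, IARS in the table). By list, the element was in 3 of 27 windows of ATF4 and CHOP outputs, 4 of 14 of the serine and asparagine genes, 4 of 21 of the amino acid transporters and 6 of 18 of the cytosolic tRNA synthetases. Within the synthetases, 6 of 9 windows of higher genes and 0 of 6 windows of lower genes held it. Within the transporters it was in 2 of 13 windows of higher genes and in 2 of 3 windows of genes not called. A match describes the letters in these windows and is not evidence of binding.

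ATF4 had 18689.9 and 16454 normalized reads in the MS177 libraries, against 6624 and 6635 in the MS177N1 libraries (1.40, SE 0.07, limma adjusted p = 9.26e-10). PPP1R15A (GADD34), which feeds back on the pathway by directing dephosphorylation of eIF2alpha, had 12139 and 11781 normalized reads in the MS177 libraries, against 1652 and 1644 in the MS177N1 libraries (2.86). CEBPB and CEBPG, partners of ATF4, rose by 1.88 and 1.27 on the log2 scale. Among the 4 kinases, EIF2AK4 (GCN2, the sensor of uncharged tRNA) rose by 1.23 and EIF2AK3 (PERK, the sensor of the endoplasmic reticulum) by 0.66. EIF2AK1 was not called (-0.08), and EIF2AK2 was called lower at -0.24, a call lost in 4 of 17 other settings. EIF2S1 (-0.44) and EIF2B3 (-0.53), parts of the translation initiation machinery that the kinases act on, were also lower, and ATF5 was not called (0.09).

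Of 35 genes described as ATF4 or CHOP outputs, 30 were called higher and 1 lower, against 28.8% and 28.6% of all genes, with a median of 1.64. The same list had a median of 1.52 against DMSO, and MS177N1 over DMSO had -0.05. ATF3, a stress repressor, had 12976 and 12536 normalized reads in the MS177 libraries, against 648 and 713 in the MS177N1 libraries (4.23, SE 0.07, limma adjusted p = 1.05e-15). DDIT3 had 2950.1 and 2702 normalized reads in the MS177 libraries, against 157 and 186 in the MS177N1 libraries (4.03). CHAC1, which breaks down glutathione, had 2027 and 1783 normalized reads in the MS177 libraries, against 266 and 273 in the MS177N1 libraries (2.81). In none of these did the groups come near each other. DUSP8, a phosphatase of JNK, had 1626 and 1472 with MS177, against 73.4 and 84.6 with MS177N1 (4.28) and INHBE, an activin subunit, 205 and 213 with MS177, against 6.29 and 6.37 with MS177N1 (4.84). TRIB3, a pseudokinase that restrains ATF4, had 8479.6 and 8178 with MS177, against 1440.4 and 1525 with MS177N1 (2.49). The 1 lower call was ERO1L (ERO1A), an oxidase of the endoplasmic reticulum, with 1081 and 1157 with MS177, against 1953 and 1929 with MS177N1 (-0.79). VLDLR, NDRG1, LONP1 and HMOX1 were not called, between -0.16 and 0.26, and 27 of the 30 higher calls held in all 17 other settings.

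Serine, asparagine and one-carbon genes split by enzyme. Of 23, 16 were called higher and 6 lower, with a median of 0.74, and all of these calls held in the 17 other settings. The 3 enzymes of serine synthesis rose together. PHGDH had 5503 and 5427 normalized reads in the MS177 libraries, against 1503 and 1649 in the MS177N1 libraries (1.79), PSAT1 had 6708 and 7006 with MS177, against 2477 and 2460.1 with MS177N1 (1.47) and PSPH had 1382 and 1293 with MS177, against 346 and 404 with MS177N1 (1.84). ASNS, which makes asparagine, had 5846 and 6266 normalized reads in the MS177 libraries, against 1839 and 1794 in the MS177N1 libraries (1.74, limma adjusted p = 1.5e-12). BCAT1, which transaminates branched-chain amino acids, had 388 and 424 with MS177, against 33.6 and 25.5 with MS177N1 (3.75), ASS1 of the urea cycle 219.7 and 172 with MS177, against 19.9 and 21.8 with MS177N1 (3.16) and CBS, which makes cystathionine, 482 and 495 with MS177, against 62.9 and 75.5 with MS177N1 (2.81). Among folate enzymes the mitochondrial ones ALDH1L2 (2.38), MTHFD2 (0.74), SHMT2 (0.71) and MTHFD1L (0.70) rose. The cytosolic SHMT1 (-0.66) and MTHFD1 (-0.49) fell, as did TYMS (-0.47), which makes thymidylate. In proline synthesis PYCR1 rose (0.80), while ALDH18A1, the first enzyme, fell to 1171 and 1199.9 with MS177, against 2588 and 2469 with MS177N1 (-1.09), and PYCRL also fell (-0.54).

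Amino acid transporters mostly rose: of 23, 14 were called higher and 6 lower, with a median of 0.42. SLC7A11, the cystine importer, had 1036 and 1285 normalized reads in the MS177 libraries, against 252 and 262 in the MS177N1 libraries (2.16). Its heavy chain SLC3A2 had 17291 and 15318 with MS177, against 7539 and 7428 with MS177N1 (1.12). SLC6A9, a glycine importer, had 3997 and 3563 with MS177, against 583 and 579 with MS177N1 (2.70), SLC43A1, a leucine carrier, 1014 and 1006 with MS177, against 209 and 193 with MS177N1 (2.33), and SLC7A8 129 and 157 with MS177, against 9.44 and 5.46 with MS177N1 (4.12). Both MS177 libraries lay above both MS177N1 libraries in all 5. SLC36A1, a lysosomal carrier (105 and 111 with MS177, against 188 and 172 with MS177N1, -0.73), and SLC38A5 (-0.52) were among the lower calls.

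Enzymes that charge tRNA moved in both directions in the cytosol and were mostly lower in mitochondria. Of 22 genes of the cytosolic set, 11 were called higher and 8 lower, and all 11 higher calls held in the 17 other settings. GARS had 11477 and 12516 normalized reads in the MS177 libraries, against 4222 and 4213 in the MS177N1 libraries (1.51), CARS had 4790.1 and 5265 with MS177, against 1567 and 1574 with MS177N1 (1.68), AARS had 22164 and 22991 with MS177, against 8870.3 and 9265 with MS177N1 (1.32) and SARS had 3784 and 3525 with MS177, against 1607 and 1627 with MS177N1 (1.17). EEF1E1, a scaffold of the multi-synthetase complex, fell (590.5 and 529 with MS177, against 1117 and 1068 with MS177N1, -0.96), as did FARSB (-0.58), HARS (-0.44) and VARS (-0.41). Of 17 mitochondrial synthetases, 2 were called higher and 11 lower, with a median of -0.29. MARS2 had 729.8 and 752 with MS177, against 1138 and 1147 with MS177N1 (-0.62) and YARS2 422 and 412 with MS177, against 609.5 and 635 with MS177N1 (-0.58), while PARS2 (0.63) and FARS2 (0.47, a call lost in 2 of 17 other settings) were higher. The difference between the 2 sets was not tested.

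Brakes on mTORC1, the kinase complex that drives growth when amino acids are plentiful, were led by SESN2 and DDIT4. SESN2, a leucine sensor and ATF4 target, had 5505 and 5801 normalized reads in the MS177 libraries, against 696 and 675 in the MS177N1 libraries (3.04, limma adjusted p = 1.82e-14). DDIT4 (REDD1), which acts through the TSC complex, had 12185 and 11333 normalized reads in the MS177 libraries, against 2879 and 2940.3 in the MS177N1 libraries (2.01). C7orf60 (SAMTOR), a sensor of S-adenosylmethionine, rose as well (1.00). Of 19 brakes and sensors, 9 were called higher and 4 lower, with a median of 0.16, the lower ones being GATSL2 (-0.76, lost in 12 of 17 other settings), DEPDC5 (-0.48), AKT1S1 (-0.34) and NPRL3 (-0.32). DDIT4 was also 1 of the 2 genes called between C24 and MS177N1, with 3968 and 4181 normalized reads with C24, against 2879 and 2940.3 with MS177N1 (0.49, limma adjusted p = 0.00136), and MS177 lay above both. Parts of the mTOR complexes did not lean either way, with 7 higher and 6 lower of 22, and 3 lower without the first and 3 without the second MS177N1 library. EIF4EBP1, the translation repressor that mTORC1 inactivates, rose (4603 and 3969 with MS177, against 2204 and 2045 with MS177N1, 1.01), as did FNIP1 (1.01), while LAMTOR4 fell (-0.60).

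**Figure D3:**
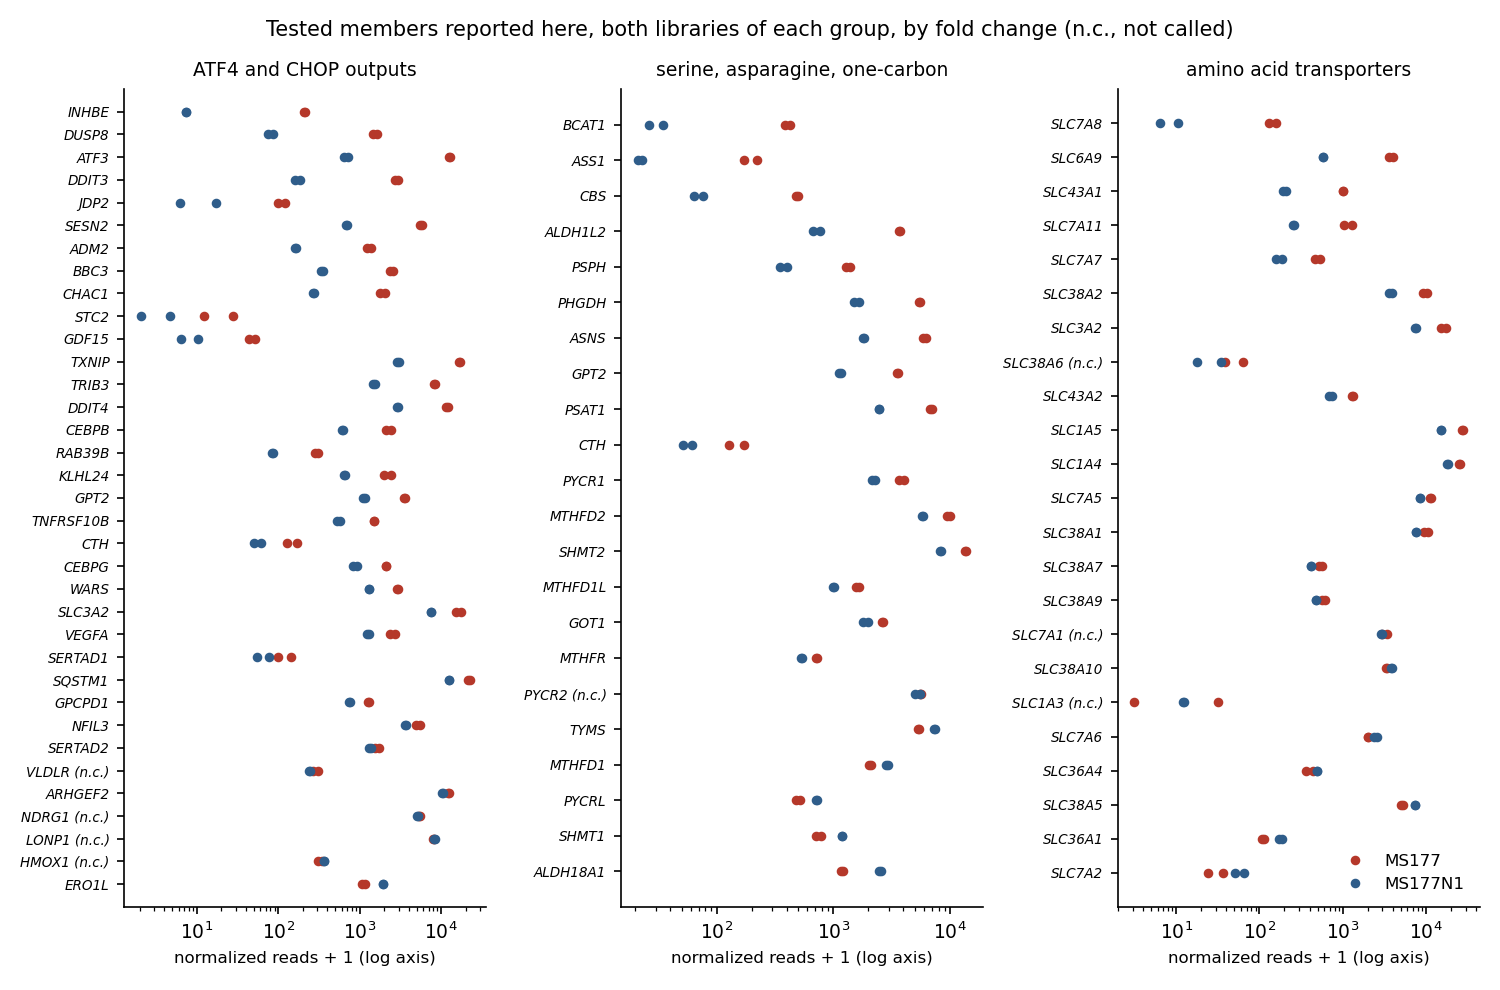
Normalized reads plus 1 (log axis) of the tested members reported here of 3 lists, 1 row per gene ordered by fold change, with MS177 libraries in red and MS177N1 libraries in blue (n.c., not called). The red points lie right of the blue ones in most rows, and the order turns at the foot of the serine and transporter panels, for example in ALDH18A1 and SLC36A1.

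MYC fell and the genes that make ribosomes fell with it. MYC had 8086 and 7568 normalized reads in the MS177 libraries, against 13674 and 13538 in the MS177N1 libraries (-0.80, SE 0.05, limma adjusted p = 9.67e-10). The DMSO libraries had 15202 and 14228, so both MS177 libraries were below those of MS177N1 and DMSO. MXD1, an antagonist that competes for the MYC partner MAX, had 717 and 749 with MS177, against 240.2 and 267 with MS177N1 (1.53), and MXI1, of the same kind, 1651 and 1707 with MS177, against 1074 and 1068 with MS177N1 (0.65). MYCN, a paralog of MYC, had 145 and 80.4 with MS177, against 36.7 and 26.4 with MS177N1 (1.76). Of 12 genes of the network, 6 were called higher and 2 lower, MYC and MNT (-0.38, lost in 2 of 17 other settings).

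Of 59 genes of ribosome biogenesis and RNA polymerase I, 54 were called lower and 1 higher, against 28.6% and 28.8% of all genes, with a median of -0.57. CD3EAP (POLR1G), a polymerase I subunit, had 584 and 549.9 normalized reads in the MS177 libraries, against 1388 and 1443 in the MS177N1 libraries (-1.32). TCOF1, a factor of ribosomal RNA transcription, had 1898 and 1962 with MS177, against 4117 and 4201 with MS177N1 (-1.11), LYAR 646 and 657 with MS177, against 1346 and 1289 with MS177N1 (-1.01) and NCL, nucleolin, was also lower (-0.89). RRN3, which recruits polymerase I, was the 1 higher call (1698 and 1965 with MS177, against 1469.8 and 1429 with MS177N1, 0.33), and 50 of the 54 lower calls held in all 17 other settings. The E-box letters CACGTG, which MYC and many other factors bind, were in 17 of 50 windows of this list and in 2030 of 27305 of all windows (7.43%; 10.4% of tested genes). The 2 windows below show the element near the start of called genes, in capitals.
POLR1G: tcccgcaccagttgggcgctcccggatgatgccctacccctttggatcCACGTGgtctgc
UTP20: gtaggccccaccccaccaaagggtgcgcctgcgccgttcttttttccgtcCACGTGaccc
They lie at chr19:45406584-45406643 (+ strand) and chr12:101280045-101280104 (+ strand). UTP20, a part of the small subunit processome, was called lower (-0.67). Of the 17 windows with the element all 17 belonged to lower genes, as did 46 of the 50 windows searched.

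Nucleotide synthesis fell almost throughout, with 28 of 31 genes lower and 1 higher and a median of -0.51. IMPDH1, of guanine nucleotide synthesis, had 1422 and 1380.4 normalized reads in the MS177 libraries, against 3078 and 2998 in the MS177N1 libraries (-1.12). DHODH, of pyrimidine synthesis, had 355 and 291 with MS177, against 751 and 693 with MS177N1 (-1.17), and CAD, the enzyme that starts it, fell too (-0.70). CTPS2 was the 1 higher call (0.35, lost in 5 of 17 other settings), beside CTPS1 at -0.95. NME1 and NME2, whose reads are hard to tell apart, were at -1.33 and -1.12.

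Cytosolic ribosomal protein genes changed little. Of 79, 31 were called lower and 0 higher, with a median of -0.12, and with scaling by total reads the counts were 15 lower and 4 higher and the median -0.05. The lower count was 20 without the first MS177N1 library and 14 without the second. RPS16 had 33909 and 32218 normalized reads in the MS177 libraries, against 40357 and 40454 in the MS177N1 libraries (-0.29) and RPL8 48311 and 45435 with MS177, against 55024 and 57567 with MS177N1 (-0.26). Many of these genes have processed copies that share reads, so single members are uncertain. Of 41 translation factors, 9 were called higher and 20 lower. EIF5A, which helps ribosomes past stalls, fell (19564 and 17739 with MS177, against 27014 and 28578 with MS177N1, -0.58), and EIF1, which sets start site choice, rose (19735 and 18093 with MS177, against 11019.9 and 10869.9 with MS177N1, 0.79). Among 15 host genes of small nucleolar RNAs, 7 were called higher and 4 lower, against 28.8% and 28.6% of all genes. SNHG12 was highest (1.02), and SNHG3 (-1.09), DANCR (-0.73), SNHG16 (-0.68) and SNHG15 (-0.57) were lower.

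Mitochondrial genes in the nucleus were mostly lower. Of 76 mitochondrial ribosomal proteins, 53 were called lower and 6 higher, with a median of -0.33. MRPS26 had 674 and 571 normalized reads in the MS177 libraries, against 1287 and 1387 in the MS177N1 libraries (-1.11), and MRPL20 had 1586 and 1495 with MS177, against 2866 and 2772 with MS177N1 (-0.87). MRPL49 went the other way (2997 and 2970.4 with MS177, against 2095 and 2073 with MS177N1, 0.52), and the higher count was 3 without the first MS177 library. Of 75 nuclear genes of oxidative phosphorylation, 52 were called lower and 1 higher, with a median of -0.40. NDUFS8 of complex I had 1346 and 1107 with MS177, against 2897 and 2824 with MS177N1 (-1.23) and NDUFS7 2823 and 2559.8 with MS177, against 5020 and 4715 with MS177N1 (-0.86), and NDUFB5 was the 1 higher call (0.29). Chaperones, proteases and import factors of mitochondria gave 19 lower and 4 higher calls among 29. OMA1, a stress-activated protease of the inner membrane, had 128 and 127 with MS177, against 367 and 398 with MS177N1 (-1.58), while CLPX (0.45), HSPA9 (0.24), HTRA2 (0.26) and DNAJA3 (0.16) were higher, HTRA2 and DNAJA3 with calls lost in 3 and 3 of 17 other settings.

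Protein folding and disposal in the cytosol fell as well. All 14 genes of the TRiC chaperonin and its prefoldin partner had a negative log2 fold change and 13 were called lower, with a median of -0.52. CCT3 had 8505 and 8762 normalized reads in the MS177 libraries, against 14315 and 14337 in the MS177N1 libraries (-0.73). Of 47 proteasome genes, 37 were called lower and 2 higher, with a median of -0.37. PSMB2 had 3311 and 3103 with MS177, against 5370.4 and 5596 with MS177N1 (-0.77), PSMB5, the subunit that bortezomib blocks, fell (-0.62), and PSMD5 (1465 and 1635 with MS177, against 1048 and 988 with MS177N1, 0.60) and PSMG2 (0.28) rose. Of 31 heat shock genes, 17 were called lower and 3 higher. HSPA8, the constitutive HSP70, had 13323 and 14634 normalized reads in the MS177 libraries, against 39581 and 39639 in the MS177N1 libraries (-1.50), and FKBP4, an HSP90 partner, had 2757 and 2675 with MS177, against 6894 and 7077 with MS177N1 (-1.36). The 3 higher calls were SERPINH1, a collagen chaperone (961 and 935 with MS177, against 27.3 and 40.9 with MS177N1, 4.78), DNAJB4 (1.09) and HSPA1A (1.22), whose reads cannot be told well from its near copy HSPA1B (-0.12, not called).

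**Figure D4:**
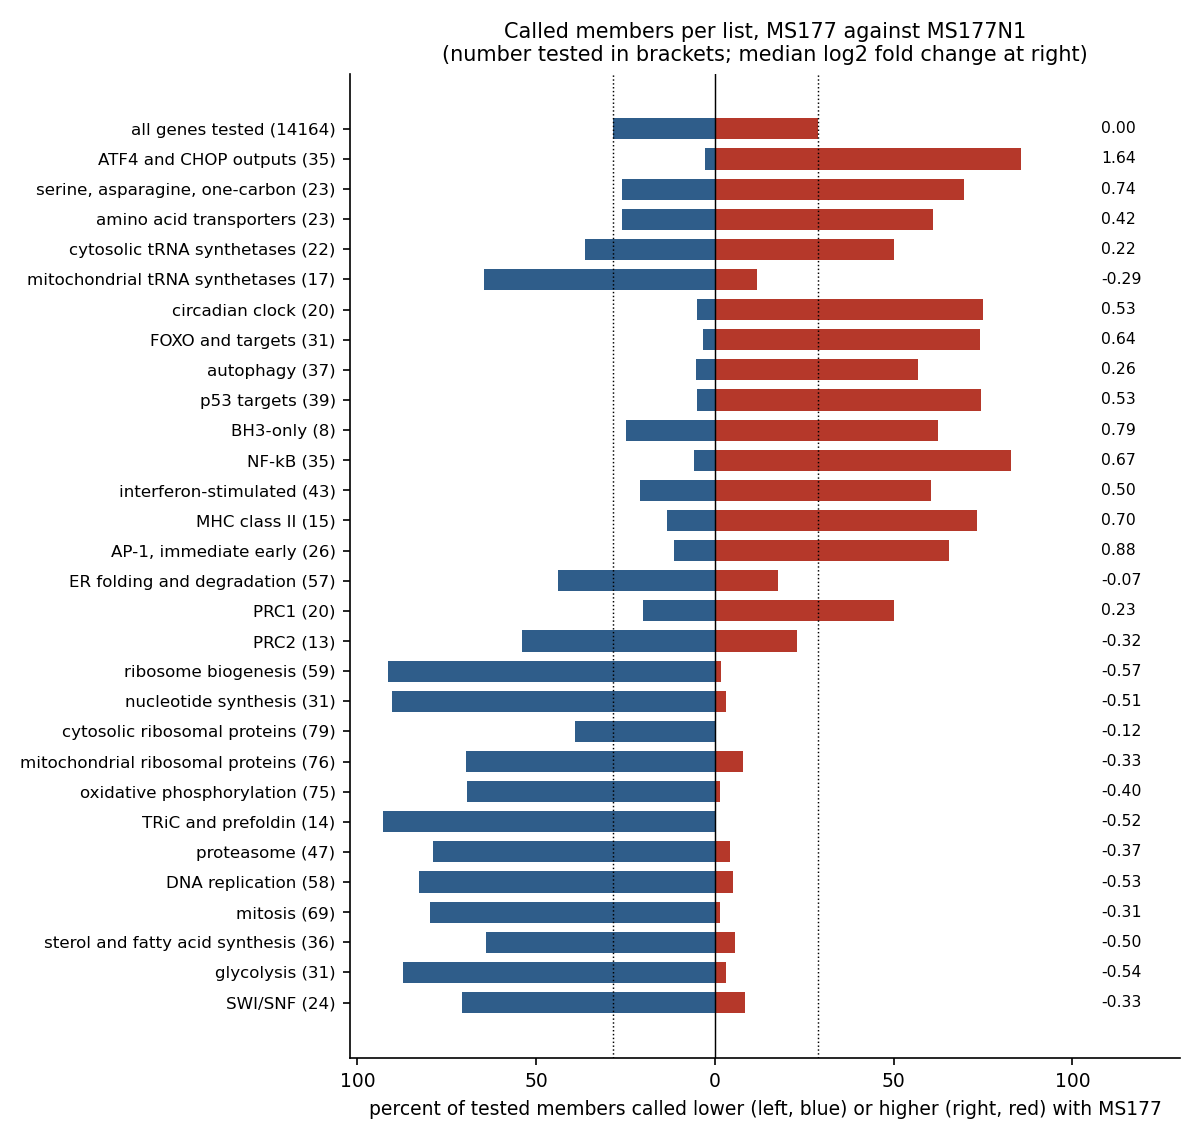
Percent of tested members called lower (left, blue) and higher (right, red) with MS177 in 29 of the lists and among all 14164 genes (top bar, dotted lines at 28.6% and 28.8%), with the number tested in brackets and the median log2 fold change at right. ATF4 and CHOP outputs and NF-kB genes reach furthest right, and TRiC, ribosome biogenesis and nucleotide synthesis furthest left.

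Cell cycle genes fell beside a rise of CDKN1A (p21), the inhibitor of cyclin-dependent kinases. CDKN1A had 5446 and 4877 normalized reads in the MS177 libraries, against 1124 and 1094 in the MS177N1 libraries (2.22, SE 0.07, limma adjusted p = 1.16e-12), and CDKN1B, CDKN1C and CDKN2D were not called (-0.03, 0.13 and 0.26). CCND1 had 31.1 and 38.3 with MS177, against 218 and 243 with MS177N1 (-2.70) and CCNE1, the cyclin that starts S phase, 372 and 345 with MS177, against 785 and 856 with MS177N1 (-1.19). Both cyclins were low in both MS177 libraries. Of 14 genes of the G1 engine, 11 were called lower, and RB1 (1062 and 1181 with MS177, against 772 and 691 with MS177N1, 0.62) and RBL2 (0.27), which hold E2F factors in check, higher. E2F1 had 1931 and 1630.1 with MS177, against 3456 and 3549.6 with MS177N1 (-0.98) and its partner TFDP1 3925 and 3970.1 with MS177, against 7008 and 6603 with MS177N1 (-0.78), whereas E2F7, a repressor of the family, had 2484 and 2569 with MS177, against 961 and 1040.4 with MS177N1 (1.34), and E2F5 was also higher (0.66, lost in 3 of 17 other settings).

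Of 58 replication genes, 48 were called lower and 3 higher, with a median of -0.53, and 47 of the lower calls held in all 17 other settings. UHRF1, which brings DNA methylation to new strands, had 1885 and 1701 normalized reads in the MS177 libraries, against 5063 and 5092 in the MS177N1 libraries (-1.50). MCM10, of the replicative helicase, had 547 and 485 with MS177, against 1180.2 and 1253 with MS177N1 (-1.24), and PCNA, the sliding clamp, fell (-0.80). The higher calls were ORC4 (879.8 and 888 with MS177, against 597 and 603 with MS177N1, 0.56), PRIM1 (0.33) and ORC5 (0.22), PRIM1 and ORC5 with calls lost in 2 and 11 of 17 other settings. The E2F letters TTTNNCGC were in 25 of 50 windows of the list, in 10.7% of the windows of tested genes and in 6.90% of all windows. These 2 are shown for their place upstream of S phase genes, with the element in capitals.
UHRF1: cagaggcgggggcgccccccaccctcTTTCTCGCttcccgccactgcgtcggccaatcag
PCNA: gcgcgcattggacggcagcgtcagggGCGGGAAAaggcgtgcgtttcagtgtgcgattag
They lie at chr19:4909363-4909422 (+ strand) and chr20:5126648-5126707 (- strand). Windows of genes that were not called held the letters as well, in 4 of 7 cases, against 21 of 40 for lower genes.

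Of 69 mitotic genes, 55 were called lower and 1 higher, with a median of -0.31, and 41 were lower in all 17 other settings. UBE2C, which serves the anaphase-promoting complex, had 1217 and 971 normalized reads in the MS177 libraries, against 2109.8 and 2092 in the MS177N1 libraries (-0.95), MKI67 had 7283 and 8484 with MS177, against 12720.5 and 12668 with MS177N1 (-0.69) and INCENP 2178 and 2128 with MS177, against 3358 and 3529.6 with MS177N1 (-0.68). NDC80 of the kinetochore was the 1 higher call (1257 and 1229 with MS177, against 1053 and 1058 with MS177N1, 0.24). The letters TTTGAA, the core of the cell cycle homology region through which the DREAM complex acts, were in 41 of 60 windows of the list and in 15.4% of all windows (9.77% of tested genes). PLK1 and MKI67 carry them close to the start.
PLK1: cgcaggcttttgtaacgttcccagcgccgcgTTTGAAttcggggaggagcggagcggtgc
MKI67: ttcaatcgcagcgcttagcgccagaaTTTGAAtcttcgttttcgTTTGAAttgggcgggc
They lie at chr16:23678829-23678888 (+ strand) and chr10:128126437-128126496 (- strand), and PLK1, a mitotic kinase, was called lower (-0.63). Lower genes had the letters in 30 of 46 windows and genes not called in 10 of 13. DNA repair genes gave 21 lower calls and 1 higher among 38. UNG, which removes uracil, had 1611 and 1543 with MS177, against 3728 and 3674 with MS177N1 (-1.23) and CHEK2, a checkpoint kinase, 257 and 288 with MS177, against 576 and 631 with MS177N1 (-1.14), and BRCA2 was the 1 higher call (0.52, lost in 1 of 17 other settings).

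Histone genes were called about as often as other genes. Of 17, 5 were called higher and 5 lower, against 28.8% and 28.6% of all genes. H1FX, a linker histone, had 46869.9 and 40466 normalized reads in the MS177 libraries, against 18579 and 18791 in the MS177N1 libraries (1.22), HIST1H1C 393 and 311 with MS177, against 133 and 125 with MS177N1 (1.43) and HIST1H2AC 327 and 327 with MS177, against 52.5 and 25.5 with MS177N1 (3.12). H3F3B (1.27) and HIST2H4A (2.35) were also higher, both uncertain because near copies share their reads. The replacement histones H2AFZ (11590.5 and 10458 with MS177, against 14668 and 15039.8 with MS177N1, -0.43), H3F3A (-0.27), H2AFV (-0.25), H2AFX (-0.22, lost in 1 of 17 other settings) and H2AFY (-0.18, lost in 1) fell. Replication histone mRNAs usually lack a poly(A) tail, and how RNA was selected is not analysed here.

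Genes of sterol and fatty acid synthesis were lower. Of 36 genes under SREBP, the membrane-bound factors that answer to cholesterol, 23 were called lower and 2 higher, with a median of -0.50. SQLE, which oxidizes squalene, had 204 and 233 normalized reads in the MS177 libraries, against 598 and 511 in the MS177N1 libraries (-1.34, limma adjusted p = 3.64e-08). FASN, fatty acid synthase, had 3548 and 3395 with MS177, against 8630 and 8764 with MS177N1 (-1.33). The groups did not overlap in either. FADS2 (1.05) and ME1 (0.25) were the higher calls, lost in 1 and 4 of 17 other settings, and INSIG1, LSS and MVD were among 11 genes not called. The sterol response letters TCACNCCAC were in 1 of 29 windows of the list and in 1.15% of all windows (1.16% of tested genes). On the export side ABCA1 rose (79.3 and 56.1 with MS177, against 16.8 and 13.6 with MS177N1, 2.07) as did NR1H3 (LXRalpha, 122 and 111 with MS177, against 49.3 and 64.6 with MS177N1, 1.03), ABCG1 (1.13, lost in 4 of 17 other settings) and NR1H2 (0.40), while NPC1 (-0.44) and NPC2 (-0.30), which take cholesterol out of the lysosome, and SOAT1 (-0.27, lost in 1), which esterifies it, fell.

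Glycolysis and the pentose phosphate pathway gave 27 lower calls and 1 higher among 31, with a median of -0.54. LDHA had 21171 and 21755 normalized reads in the MS177 libraries, against 38770 and 37837 in the MS177N1 libraries (-0.84). HK2 (-0.72), PKM (-0.60) and GAPDH (72345 and 70354 with MS177, against 103353 and 104528 with MS177N1, -0.54) fell, and RPIA, of the pentose pathway, fell furthest (315 and 278 with MS177, against 672 and 764 with MS177N1, -1.27). SLC2A3, a glucose importer, was the 1 higher call, with 627 and 654 with MS177, against 282 and 258 with MS177N1 (1.24), beside SLC2A1 at -0.40.

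FOXO factors and genes described as their targets rose, with 23 of 31 called higher and 1 lower and a median of 0.64. FOXO factors act when AKT signalling is low. FOXO1 (728 and 835 with MS177, against 287 and 286 with MS177N1, 1.44) and FOXO3 (0.61) rose themselves. TXNIP, which restrains glucose uptake, had 16986 and 16643 normalized reads in the MS177 libraries, against 2883 and 2998 in the MS177N1 libraries (2.52), and PIK3IP1, an inhibitor of PI3K, had 2024 and 1951 with MS177, against 329 and 350.1 with MS177N1 (2.55). KLF6 had 12676 and 13551 with MS177, against 2855 and 2798 with MS177N1 (2.21) and CCNG2 1399.5 and 1423 with MS177, against 498 and 451 with MS177N1 (1.57), and both MS177 libraries were high in all 4. SOD2 was the 1 lower call (1255 and 1265 with MS177, against 1765 and 1789 with MS177N1, -0.50). In the PI3K-AKT pathway itself, 12 of 23 genes were called higher and 7 lower, against 28.8% and 28.6% of all genes. With length and GC trends removed, 9 were higher and 9 lower, so the lean to higher calls depends on the processing. PIK3AP1, the adaptor that links PI3K to B cell receptors, fell to 28.9 and 28.1 normalized reads with MS177, against 277 and 314 with MS177N1 (-3.33). AKT1 (-0.81) and AKT2 (-0.82) fell and PIK3CA (1.06) rose.

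Of 20 circadian clock genes, 15 were called higher and 1 lower, with a median of 0.53, and 10 of the higher calls held in all 17 other settings. PER1 had 2059 and 2005 normalized reads in the MS177 libraries, against 577 and 562 in the MS177N1 libraries (1.83), NR1D1 1597 and 1481 with MS177, against 553 and 423 with MS177N1 (1.67) and NR1D2 2057 and 2640.2 with MS177, against 739 and 708 with MS177N1 (1.69), all of them repressors within the loop. ARNTL and CLOCK, the activators, were not called (-0.21 and -0.15), and ARNTL2 fell (-0.52). All libraries were taken at 24 h, so no phase can be read from them.

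Autophagy genes gave 21 higher calls and 2 lower among 37, with a median of 0.26. GABARAPL1, an ATG8 protein, had 562 and 572 normalized reads in the MS177 libraries, against 198 and 235 in the MS177N1 libraries (1.39), OPTN, a cargo receptor, had 4346 and 4499 with MS177, against 1919 and 2024 with MS177N1 (1.17), and MAP1LC3B (LC3B) rose too (1.13). ULK2 (84.7 and 103 with MS177, against 228 and 206 with MS177N1, -1.20) and ATG4A (-0.33, lost in 4 of 17 other settings) were the lower calls. Lysosomal genes did not share a direction, with 22 higher and 18 lower of 60 and a median of 0.00. GRN, progranulin, had 8441 and 7364 with MS177, against 2843 and 2866 with MS177N1 (1.47) and LGMN, legumain, 5835 and 5180.4 with MS177, against 2634 and 2681 with MS177N1 (1.05), while CTSC, cathepsin C, had 1849 and 1770.4 with MS177, against 3120.1 and 3227 with MS177N1 (-0.81). Among 26 NRF2 and antioxidant genes, 8 were called higher and 12 lower, against 28.8% and 28.6% of all genes, so the higher count is near its share. NFE2L2 itself had 1601 and 1688 with MS177, against 934 and 838 with MS177N1 (0.89). PRDX1 had 5825 and 5279 with MS177, against 9923 and 10089.6 with MS177N1 (-0.85).

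Genes of the endoplasmic reticulum, on which antibody-secreting cells rely, gave more lower calls than higher. Of 57, 25 were called lower and 10 higher, and the median was -0.07, or 0.00385 with scaling by total reads. HERPUD1, of the degradation machinery, rose strongly, with 27149 and 26679 normalized reads in the MS177 libraries, against 9171 and 8852 in the MS177N1 libraries (1.58, limma adjusted p = 3.53e-13), and DNAJB9 rose too (2556 and 2718 with MS177, against 1395 and 1344 with MS177N1, 0.94). FKBP11 had 897 and 858 with MS177, against 2477 and 2310 with MS177N1 (-1.45) and SDF2L1 887 and 760.4 with MS177, against 2012 and 2014 with MS177N1 (-1.29), both lower with MS177. HSPA5 (BiP), the main chaperone of the compartment, was not called (-0.07), nor was SYVN1 (0.07).

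Among genes that promote or restrain cell death, BBC3, BMF, MCL1 and BCL2 rose. Of 8 BH3-only activators, 5 were called higher and 2 lower, against 28.8% and 28.6% of all genes. BBC3 (PUMA) had 2559 and 2331 normalized reads in the MS177 libraries, against 336 and 352 in the MS177N1 libraries (2.83). BMF had 9512 and 9888 normalized reads in the MS177 libraries, against 2046 and 1947 in the MS177N1 libraries (2.28). PMAIP1 (NOXA) had 747 and 732 with MS177, against 209 and 207 with MS177N1 (1.82) and BCL2L11 (BIM) 3709 and 4153 with MS177, against 2779 and 2691 with MS177N1 (0.52). All 4 lay above MS177N1 in both libraries. BAD (-0.31) and BID (-0.26, a call lost in 1 of 17 other settings) were lower. The guardians MCL1 (18531 and 19258 with MS177, against 10375 and 10343 with MS177N1, 0.87) and BCL2 (4795 and 5133 with MS177, against 2788 and 2759 with MS177N1, 0.84) also rose, BCL2L1 was not called (-0.08), and CYCS, cytochrome c (5049 and 5188 with MS177, against 9320.3 and 9092 with MS177N1, -0.85), and BIRC5, survivin (-0.45), fell. Of 15 genes of the BCL2 and inhibitor families, 7 were called higher and 2 lower. Without the second MS177N1 library 4 were higher, which is near the 28.8% of all genes. TNFRSF10B, the death receptor DR5 and a CHOP target, had 1517 and 1493 with MS177, against 569.7 and 527 with MS177N1 (1.46), and TNFSF10, its ligand TRAIL, 246 and 230.1 with MS177, against 103 and 126 with MS177N1 (1.06). TNFRSF1B, a TNF receptor, fell to 600.1 and 556 with MS177, against 1686 and 1809 with MS177N1 (-1.60), and CASP6 (-0.61), CASP2 (-0.53), FADD (-0.52) and TNFRSF1A (-0.24) were the other lower calls among 23 genes of death receptors and caspases, 10 of which were higher.

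Of 39 direct p53 targets, 29 were called higher and 2 lower, with a median of 0.53, and 25 higher calls held in all 17 other settings. SESN2, BBC3, CDKN1A and PMAIP1, given above, are in the list, and the ATF4 and FOXO lists hold several of the same genes. Other members were RRM2B (1.07), DDB2 (0.79), MDM2 (0.53), PHLDA3 (0.69) and XPC (0.45), all called higher. PIDD1 (710.5 and 679.9 with MS177, against 950.5 and 932 with MS177N1, -0.44) and TRIAP1 (-0.31, lost in 3 of 17 other settings) were the lower calls.

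Plasma cell markers were read at high levels in every library, but several were lower with MS177. SDC1 (CD138), the surface proteoglycan of plasma cells, had 12569 and 12278 normalized reads in the MS177 libraries, against 27073 and 26919 in the MS177N1 libraries (-1.12, limma adjusted p = 2.13e-12). TNFRSF17 (BCMA), a target of myeloma therapy, had 2070.3 and 1951 normalized reads in the MS177 libraries, against 4171 and 4104 in the MS177N1 libraries (-1.04). IGJ (JCHAIN), the chain that joins antibodies, had 34601 and 34216 normalized reads in the MS177 libraries, against 85077 and 83995 in the MS177N1 libraries (-1.30). All 3 were low in both MS177 libraries. IRF4 (13812 and 14119.5 with MS177, against 17762 and 17484 with MS177N1, -0.34) and PRDM1 (4878 and 5444 with MS177, against 6555 and 6429 with MS177N1, -0.33), the factors that fix plasma cell identity, also fell, and SLAMF7 fell slightly (7135 and 7346 with MS177, against 8208 and 8293 with MS177N1, -0.19). XBP1 had 34814 and 33576 with MS177, against 30209 and 29168 with MS177N1 (0.20) and was called higher. CD38 overlapped between the groups (1155 and 1328 with MS177, against 1140.4 and 1236 with MS177N1, 0.06, limma adjusted p = 0.534), and its sign turned without the second MS177 library, at -0.04, and with length and GC trends removed, at -0.05.

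Of 21 plasma cell and B cell factors, 12 were called higher and 3 lower, against 28.8% and 28.6% of all genes. The lower ones were IRF4, PRDM1 and POU2AF1 (5457 and 5318 with MS177, against 8559 and 8676 with MS177N1, -0.68). BACH2, which opposes plasma cell fate, had 1021 and 1038 normalized reads in the MS177 libraries, against 399 and 404 in the MS177N1 libraries (1.36), and BCL6, a germinal centre repressor, rose too (47.2 and 56.1 with MS177, against 16.8 and 13.6 with MS177N1, 1.70). CREB3L2 had 7866 and 7979 with MS177, against 3296 and 3210.4 with MS177N1 (1.28). Among 40 surface antigens and receptors, 15 were called higher and 18 lower, so the list had no shared direction. ICAM1 had 2041 and 2017 with MS177, against 359 and 394 with MS177N1 (2.43), CD86 656 and 617 with MS177, against 276 and 289 with MS177N1 (1.17) and NCAM1 358 and 397 with MS177, against 134 and 164 with MS177N1 (1.34). GPRC5D, another therapy target, fell (-0.57). RND3, a gene described as a target of MAF in myeloma, had 758 and 887 with MS177, against 131 and 127 with MS177N1 (2.66), and NUAK1, of the same list, 913 and 938 with MS177, against 1670.2 and 1674 with MS177N1 (-0.85).

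NF-kB genes rose: of 35, 29 were called higher and 2 lower, with a median of 0.67, and 27 higher calls held in all 17 other settings. The letters GGGANTTTC were in 6 of 30 windows of the list, against 1.17% of the windows of tested genes and 1.30% of all windows. All 6 belonged to higher genes, as did 26 of the 30 windows searched. Those of 4 genes are shown because they carry the kB element, in capitals.
REL: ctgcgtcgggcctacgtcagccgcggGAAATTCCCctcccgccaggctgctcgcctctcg
NFKBIZ: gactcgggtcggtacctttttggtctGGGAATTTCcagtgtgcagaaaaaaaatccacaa
TNFAIP3: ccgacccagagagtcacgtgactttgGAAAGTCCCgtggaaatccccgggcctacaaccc
LTB: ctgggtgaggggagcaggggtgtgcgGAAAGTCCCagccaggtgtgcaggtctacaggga
They lie at chr2:60881503-60881562 (+ strand), chr3:101827741-101827800 (+ strand), chr6:137867167-137867226 (+ strand) and chr6:31582477-31582536 (- strand). LTB, a cytokine of the TNF family, had 674 and 602 normalized reads in the MS177 libraries, against 26.2 and 29.1 in the MS177N1 libraries (4.48). CCL4, a chemokine, had 2229 and 1862 normalized reads in the MS177 libraries, against 213 and 216 in the MS177N1 libraries (3.24). REL, a subunit of the factor, rose (305 and 341 with MS177, against 85.0 and 72.8 with MS177N1, 2.02), as did NFKBIZ (2.18) and the feedback inhibitors NFKBIA (0.75) and TNFAIP3 (1.17). TNFAIP2 had 1200.2 and 1195 with MS177, against 15.7 and 0.909 with MS177N1 (7.73, limma adjusted p = 0.00427), from few reads with MS177N1. EBI3, a cytokine subunit, had 262 reads in the MS177 libraries and 3 in the MS177N1 libraries, a ratio of 89.5 (95% counting interval 30.3 to 436.9). IKBKB (227 and 261 with MS177, against 551 and 549 with MS177N1, -1.17) and IKBKE (-0.70), kinases that act upstream, were the lower calls.

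Interferon-stimulated genes were more often higher than lower, with 26 of 43 higher and 9 lower, against 28.8% and 28.6% of all genes, and a median of 0.50, and the lower count was 4 without the first MS177N1 library and 5 without the second. LGALS3BP had 551 and 518 normalized reads in the MS177 libraries, against 5.25 and 2.73 in the MS177N1 libraries (6.79). It met the filter on few reads (10 in each of 2 libraries) through the MS177 libraries alone, so its call follows in part from the filter. UBD, a ubiquitin-like modifier, had 543 and 477 with MS177, against 3.15 and 8.19 with MS177N1 (6.37), and IFIT3 276 and 273 with MS177, against 25.2 and 28.2 with MS177N1 (3.32). IRF1 (1.25), STAT2 (1.46) and IRF9 (0.88) rose, while ISG15 fell, with 42.9 and 34.6 with MS177, against 80.8 and 104 with MS177N1 (-1.23). The letters GAAANNGAA, part of the interferon-stimulated response element, were in 22 of 35 windows of the list and in 8.29% of all windows (6.74% of tested genes). They were in 10 of 21 windows of higher genes, 6 of 7 of lower genes and 6 of 7 of genes not called. Of 15 MHC class II genes, 11 were called higher and 2 lower, with a median of 0.70. HLA-DRA had 15430.1 and 14536 normalized reads in the MS177 libraries, against 6709 and 6798 in the MS177N1 libraries (1.15), HLA-DMB 364 and 340.4 with MS177, against 115 and 150.1 with MS177N1 (1.41) and CIITA, the master activator, rose (0.90). HLA-DOB (51.4 and 58.9 with MS177, against 122 and 102 with MS177N1) and RFX5 (-0.41) fell. MHC class I genes changed less, with 3 higher and 8 lower of 18, the higher ones being HLA-F (1.07), HLA-B (0.22) and TAPBP (0.15, lost in 3 of 17 other settings), and B2M not called at 0.03. HLA genes are variable and alike in sequence, so their counts are uncertain.

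AP-1 and immediate early factors rose, with 17 of 26 called higher and 3 lower and a median of 0.88. JUN had 17299 and 15789.8 normalized reads in the MS177 libraries, against 2062 and 2052 in the MS177N1 libraries (3.01, limma adjusted p = 5.75e-15). EGR1 (41.8 and 35.5 with MS177, against 7.34 and 7.28 with MS177N1, 2.25) and JUND (1.67) rose, and NR4A1 had 141 and 108 with MS177, against 18.9 and 22.7 with MS177N1 (2.52). FOS (-0.50), FOSB (-1.02) and SRF (-0.41) were lower, FOS and FOSB with calls lost in 1 and 4 of 17 other settings, and FOSB was at -0.68 without the first MS177N1 library. Among phosphatases of MAP kinases, DUSP10 had 391 and 419.9 with MS177, against 57.7 and 34.6 with MS177N1 (3.15) and DUSP16 2375 and 2570.1 with MS177, against 1101 and 950.4 with MS177N1 (1.27), both of which act on JNK and p38. DUSP7, which acts on ERK, had 146 and 137 with MS177, against 888 and 819 with MS177N1 (-2.59), and SPRY2, which restrains receptor signalling, had 37.5 and 59.9 with MS177, against 7.34 and 1.82 with MS177N1 (3.32). Of 17 such feedback genes, 9 were called higher and 3 lower, DUSP7, DUSP2 (-1.26) and DUSP6 (-0.26, lost in 7 of 17 other settings).

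Chromatin regulators other than Polycomb changed as well. Of 24 SWI/SNF genes, 17 were called lower and 2 higher, with a median of -0.33. DPF3 had 117 and 126 normalized reads in the MS177 libraries, against 399.7 and 372 in the MS177N1 libraries (-1.66) and ACTL6A 2408 and 2187 with MS177, against 3991 and 3948 with MS177N1 (-0.79), and SMARCA2 and ARID1A, the higher calls at 0.15 and 0.15, were lost in 6 and 2 of 17 other settings, SMARCA2 being at 0.08 without the second MS177 library. Of 41 demethylases, deacetylases and acetyltransferases, 23 were called higher and 9 lower, the lower count being 5 without the first MS177N1 library. KDM6B (JMJD3), which removes the mark that EZH2 sets, had 1081 and 993 normalized reads in the MS177 libraries, against 188 and 190.1 in the MS177N1 libraries (2.45, limma adjusted p = 1.76e-10), and KDM6A (UTX), of the same family, rose (0.60). HDAC9 had 3041 and 3767 with MS177, against 1049 and 959 with MS177N1 (1.75) and KDM5B 259 and 379 with MS177, against 85.0 and 83.7 with MS177N1 (1.88), while HDAC1 (-0.67) and KAT2A (1331 and 1346 with MS177, against 2302 and 2248 with MS177N1, -0.76) fell. DNA methylation genes gave 4 higher and 7 lower calls among 15, against 28.8% and 28.6% of all genes. The higher count is near its share of all genes, as is the lower count of 5 without the second MS177N1 library. DNMT3A was at -0.51. TET2 (540.1 and 612 with MS177, against 387 and 397 with MS177N1, 0.55), ZBTB33 (0.50), MBD4 (0.40) and TET3 (0.24, lost in 3 of 17 other settings) were higher. Of 41 cytoskeletal genes, 24 were called lower and 9 higher. ACTB had 42959 and 40492 with MS177, against 80465 and 80103 with MS177N1 (-0.94), and VCL, vinculin, had 838 and 836 with MS177, against 214 and 264 with MS177N1 (1.81).

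Some markers of other cell types were also higher with MS177. Of 12 monocyte and granulocyte markers, 7 were analysed here, 5 had enough reads to be tested, and all 5 were called higher, against 28.8% of all genes. AIF1 and CD163 met the filter on few reads through the MS177 libraries alone. S100A9 met it through these and the first C24 library (24.8 normalized reads). The calls of these genes therefore follow in part from the filter. The summed level of the 7 was 1790 and 1665 normalized reads in the MS177 libraries, against 341 and 320.1 in the MS177N1 libraries. CD68, a lysosomal protein, made up most of it, with 1585 and 1471 with MS177, against 322 and 289 with MS177N1 (2.32). S100A9 had 57.9 and 40.2 with MS177, against 7.34 and 5.46 with MS177N1, AIF1 51.4 and 42.1 with MS177, against 1.05 and 0 with MS177N1, ITGAM 61.1 and 72.9 with MS177, against 8.39 and 19.1 with MS177N1 and CD163 24.6 and 24.3 with MS177, against 0 and 0 with MS177N1, all of them low. CD14 and CSF1R, which define monocytes, had few reads. CD14 had 9.64 and 10.3 with MS177, against 2.10 and 5.46 with MS177N1, and CSF1R had 0 and 3.74 with MS177, against 0 and 0.909 with MS177N1. The summed level of 5 T cell and NK cell markers was 97.5 and 84.2 with MS177, against 101.8 and 80.0 with MS177N1, and that of 11 stromal and epithelial markers 239 and 210.4 with MS177, against 283.3 and 313.8 with MS177N1. In these lists TRAC (35.4 and 37.4 with MS177, against 9.44 and 0.909 with MS177N1), VWF (16.1 and 10.3 with MS177, against 1.05 and 0.909 with MS177N1) and COL1A1 (1.53) were called higher, and CD3E (-1.02), PECAM1 (-0.89) and PDGFRB (-0.71) lower, with calls lost in 1, 4, 3, 1, 0 and 4 of 17 other settings in that order. TRAC and VWF also met the filter on few reads through the MS177 libraries alone, so their calls follow in part from it. The part of these markers in the results was not tested.

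The 10 highest and 10 lowest fold changes, among called genes with at least 200 normalized reads on average and no overlap, went beyond the lists. TMEM132A, a membrane protein, had 920 reads in the MS177 libraries and 2 in the MS177N1 libraries, a ratio of 471.6 (95% counting interval 130.2 to 3900). TMEM132A and LGALS3BP met the filter on few reads through the MS177 libraries alone, so their place here follows in part from it. MME (CD10), a peptidase of early B cells, had 1872 and 2176 normalized reads in the MS177 libraries, against 83.9 and 72.8 in the MS177N1 libraries (4.67, limma adjusted p = 2.51e-12). BTC, a growth factor of the EGF family, had 411 and 403 with MS177, against 17.8 and 13.6 with MS177N1 (4.62) and ARVCF, a catenin, 526 and 464 with MS177, against 42.0 and 11.8 with MS177N1 (4.40). SERPINH1, DUSP8, LTB, UBD, LGALS3BP and TNFAIP2 make up the rest and are given above. At the other end SSBP4, a DNA-binding protein, had 54.7 and 40.2 normalized reads in the MS177 libraries, against 503 and 509 in the MS177N1 libraries (-3.40). CBLN2, a secreted synapse organizer, had 118 and 123 normalized reads in the MS177 libraries, against 1253 and 1278 in the MS177N1 libraries (-3.38). ITGA8 had 929 and 1059.6 with MS177, against 5509 and 5499 with MS177N1 (-2.47) and ITGA6 146 and 158 with MS177, against 757 and 758 with MS177N1 (-2.31), both integrin chains, and HSPG2, perlecan, had 78.2 and 78.6 with MS177, against 409 and 372 with MS177N1 (-2.30). CIDEB (-2.73), VAT1 (-2.54), OAF (-2.50), CCDC167 (-2.35) and DUSP7 were the others. That all 10 were low in both MS177 libraries follows from the way they were picked.

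Counted in reads, the largest gains were in ITGB7, PBXIP1, H1FX, MT-RNR2, FTL and HERPUD1. ITGB7, an integrin chain of homing plasma cells, had 283661 and 286847 normalized reads in the MS177 libraries, against 231177 and 233452 in the MS177N1 libraries (0.30), and PBXIP1 had 56503 and 57353 with MS177, against 34392 and 34466 with MS177N1 (0.73). The largest losses were in EEF1A1, IGLC1, IGJ, TXNDC5, ACTB and GAPDH. EEF1A1, the elongation factor, had 169331 and 186693 normalized reads in the MS177 libraries, against 280185 and 277872 in the MS177N1 libraries (-0.65), and TXNDC5, a disulfide isomerase, 85786 and 83242 with MS177, against 125973 and 123676 with MS177N1 (-0.56). IGLC1, a light chain gene, had 138322 and 101814 with MS177, against 201418 and 223193 with MS177N1 (-0.84), and its call was lost in 6 of 17 other settings. EEF1A1, FTL, ACTB and IGLC1 have near copies that share reads, so their values are uncertain.

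Of the tested genes, 54 had 0 reads in both MS177N1 libraries, of which 48 were called, and 19 had 0 in both MS177 libraries, of which 10 were called. Many of the former, such as UNC13A and CXCL1, met the filter on few reads through the MS177 libraries alone. These counts of calls therefore follow in part from the filter. UNC13A, a synaptic vesicle protein, had 159.7 and 147 normalized reads with MS177, against 0 and 0 with MS177N1, so it was at least 104.9-fold higher (3 reads over the group taken as the floor). CXCL1, a chemokine, had 64.3 and 63.6 with MS177, against 0 and 0 with MS177N1, at least 43.8-fold higher. CXCL8, also a chemokine, had 28.9 and 31.8 with MS177, against 0 and 0 with MS177N1, at least 20.8-fold higher. These floors cover counting error alone.

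Where MS177N1 itself differed from DMSO, 4 of the 5 genes called were mitochondrially encoded. They were MT-CO1, MT-CO2, MT-ND4, MT-CYB and AMIGO3, all lower with MS177N1. MT-CO1, a subunit of cytochrome oxidase, had 124822 and 142610 normalized reads in the MS177 libraries, against 134096 and 137174 in the MS177N1 libraries, and 169648 and 174847 with DMSO. MT-CO2, of the same complex, had 35052 and 36549 with MS177, against 37057 and 39699.8 with MS177N1, and 47812 and 46908 with DMSO. MT-ND4, of complex I, had 38293 and 40549 with MS177, against 44118 and 45259 with MS177N1, and 58166 and 54031 with DMSO. MT-CYB had 13908 and 16253 with MS177, against 16339 and 16701 with MS177N1, and 21228 and 21794 with DMSO. Every MS177 and MS177N1 library lay below both DMSO libraries in these 4 genes. MS177 over MS177N1 was -0.02 for MT-CO1 (limma adjusted p = 0.702), 0.05 with scaling by total reads and 0.07 without the first MS177 library. Of 13 mitochondrially encoded messengers, 6 were called lower with MS177 than with MS177N1 (3 with scaling by total reads, and 3 without the second MS177N1 library). Their median was -0.18 against MS177N1, -0.51 against DMSO and -0.05 against C24, and MS177N1 over DMSO had -0.30. Calls of MT-ND4 and MT-CO2 were lost in 2 and 8 of 17 other settings, and MT-CO2 was at -0.05 without the second MS177N1 library. MT-ND6 had 9040.1 and 9933 with MS177, against 13064 and 14549 with MS177N1 (-0.54) and MT-ATP6 14227 and 14745 with MS177, against 18736 and 20553 with MS177N1 (-0.44).

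MT-RNR2, the large ribosomal RNA of mitochondria, went the other way, with 49786 and 59879 normalized reads in the MS177 libraries, against 35460 and 35966 in the MS177N1 libraries (0.61, limma adjusted p = 0.000191) and 44509 and 48009.5 with DMSO. The share of reads in mitochondrially encoded genes was 1.80% and 2.0% with MS177, 1.83% and 1.91% with MS177N1, 1.66% and 1.64% with C24, and 2.32% and 2.31% with DMSO. AMIGO3, which overlaps another gene, had 76.1 and 26.2 with MS177, against 0 and 0 with MS177N1, and 22.3 and 25.4 with C24 and 19.8 and 51.9 with DMSO, so only the MS177N1 libraries were at 0.

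**Figure D5:**
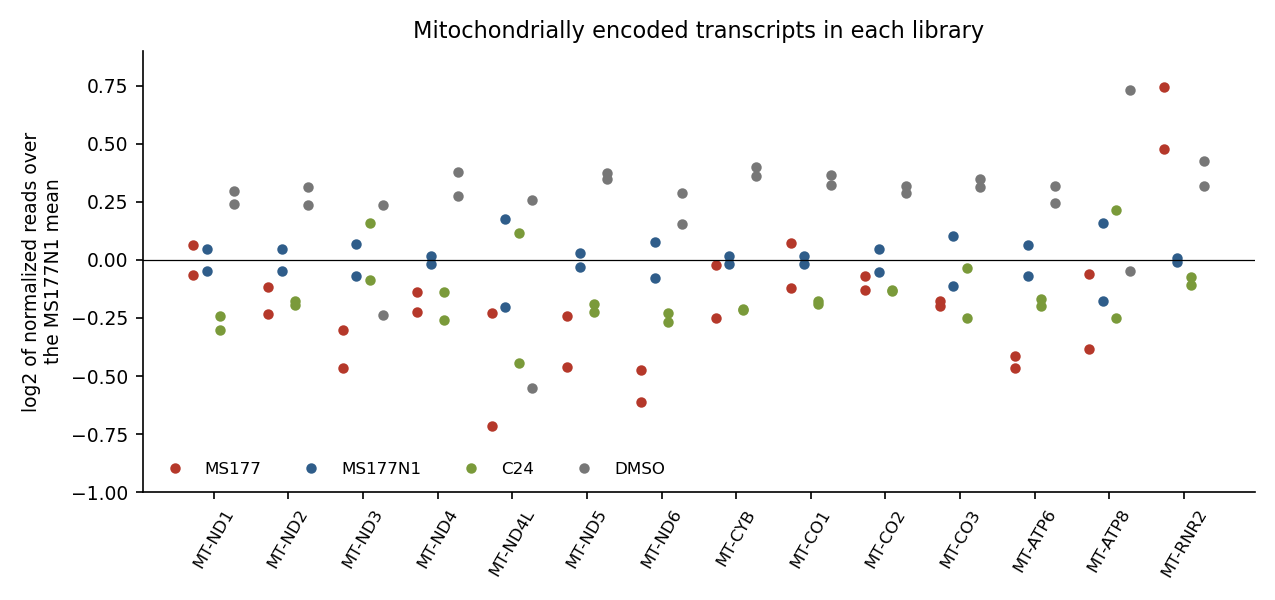
Log2 of normalized reads over the MS177N1 mean for 14 mitochondrially encoded transcripts, 2 points per group, with MS177 in red, MS177N1 in blue, C24 in green and DMSO in grey. The DMSO points lie mostly above the rest, MT-ND6 and MT-ATP6 are lowest with MS177, and MT-RNR2 is highest with MS177.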

How the data were processed

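RNA was extracted with a Qiagen RNeasy kit and libraries were made with NEBNext Ultra II, per the labels' protocols. The submitters' processing notes name STAR 2.4.2, Salmon 0.1.19, DESeq2 1.38.2 and the build hg19, with no role or order. The deposited table holds log2 values per gene, made by the authors, on the scale of the variance-stabilizing transformation of DESeq2. This transformation was inverted, and 130360 of 130360 values came out as whole reads within 0.01, so depth is known. Reads were divided by the size factors recovered with them.

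Of 16295 genes, 14164 passed a filter on few reads (10 in each of 2 libraries, scaled to the median depth, and 15 over all libraries), and 2131 did not. Log2 of normalized reads plus a pseudocount of 1 was fitted with limma 3.58.1 (trend and robust, R 4.3.3) over all 8 libraries in 4 groups. The groups came from the labels. P-values were adjusted by Benjamini-Hochberg over all tested genes, and a gene was called at 0.05. Fold changes are on this log2 scale, which understates the change of genes with few reads. Simulated counts with known changes in a small part of the genes, and the same spread for all genes, served to check the fit. They do not check it for a response as broad as this one. The members and lists were chosen with earlier results of these data known.

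Genes named were the 10 core genes, the 10 highest and 10 lowest called fold changes at a mean of at least 200 normalized reads with no overlap, the 6 largest gains and 6 largest losses in reads, up to 4 called members per list at a mean of at least 50 plus 1 against its direction, and genes called between MS177N1 and DMSO. Other members were added to show a list's makeup. Some genes the rule named are not reported here. Of 1804 listed genes, 1678 were tested, 71 of those listed being matched by older symbols. Alternatives were scaling by total reads or TMM, no filter, a pseudocount of 8, the deposited values, voom, the 4 libraries alone, a replicate block, length and GC trends removed, and each library left out. The labels do not say that replicate numbers mark pairs, and libraries were not taken as paired. The interval of EZH2 comes from limma and reflects the spread between libraries. Counting intervals and floors cover counting error only. Promoter windows came from RefSeq (GRCh38.p14), and no coordinates of the build of the table were used.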

Additional observations from a re-analysis of the deposited data

How the results depend on the processing

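No gene called between MS177 and MS177N1 was called in the opposite direction in any alternative run. With length and GC trends removed, 3 of the called genes changed sign and were no longer called. Against 8131 calls, scaling by total reads gave 8101 (4675 higher and 3426 lower), with an all-gene median of 0.07. Removing length and GC trends gave 8307 (3772 higher and 4535 lower, median -0.05). TMM, no filter, a pseudocount of 8, the deposited values, voom and the 4 libraries alone gave 8118, 8201, 8234, 8228, 8196 and 7953. With the replicate block there were 8279 calls, 8091 of them shared. Deviations of same-numbered MS177 and MS177N1 libraries correlated at -0.0261, or 0.0944 among genes with at least 100 normalized reads on average. Over the other pairs of groups this was -0.0621 to 0.0602, or -0.0699 to 0.321 among those genes, so the libraries were taken to share a number alone. Leaving out each library gave 6661 to 8258. MS177N1 against DMSO gave 5 calls, and 3 with total scaling, 6 with no filter, 8 with a pseudocount of 8, the deposited values or voom, 11 with the replicate block, 13 with length and GC trends removed, and 0 to 19 without a library. C24 against MS177N1 gave 2, and 0 to 13 without a library. With total scaling the medians of endoplasmic reticulum (0.00385), developmental (0.0706), sterol export (0.0417) and MHC class I genes (0.0398) turned positive, and with length and GC trends removed that of the mTOR parts was -0.0397. Genes not called whose sign turned included EZH2 (-0.041, length and GC), MT-CO1 (0.051, total scaling, and -0.12 to 0.072 without a library) and CD38 (-0.039 to 0.16 without a library, and -0.054 with length and GC). The cause was not tested. With 2 libraries per group, the median SE of 0.107 limits what could be called.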
